A study of Mus musculus with 8 samples.

Results

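Tibialis anterior (TA) muscles of 8 aged mice, 1 library per mouse, were divided by the level of *Fos* in the muscle itself. A library was called Fos-high where *Fos* exceeded 50 CPM (the count divided by the total of the library and multiplied by 1000000) and Fos-low where *Fos* lay under 10 CPM. The members were thus chosen by the *Fos* value alone. The rule placed 3 of the 8 libraries in the Fos-high class, which were wild-type (WT) replicates 2 and 4 and C2-/- replicate 2. The other 5, WT replicates 1 and 3 and C2-/- replicates 1, 3 and 4, were Fos-low. All mice were males on the FVBN background aged 22 months. The WT animals carried no modification, and the C2-/- animals were germline knockouts of *Mybpc2*, the gene of fast myosin binding protein-C, in which exons 2 to 22 are replaced by a Neo cassette between LoxP sites, so that every cell of the animal lacks the gene. No mouse was assigned to a *Fos* class by treatment, and per the study's methods all were anaesthetized with isoflurane and killed by cervical dislocation before the muscles were dissected and frozen. The question is therefore which other transcripts differ between muscles that differ in *Fos*. Because the classes were made from these same libraries, differences between them are given as descriptions, with a standard error (SE) but without a test.

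Both genotypes held both classes, with 2 of 4 WT and 1 of 4 C2-/- muscles Fos-high (two-sided Fisher's exact test, p = 1). With 3 Fos-high libraries the smallest p this test allows is 0.143, so it could not have shown an unequal split. *Mybpc2* itself lay between 5063 and 6865 CPM in WT and between 3.95 and 38.1 CPM in C2-/- muscle, as the labels state. The 38.1 CPM belonged to C2-/- replicate 3, a Fos-low muscle, and the other C2-/- libraries had 3.95 to 4.46 CPM. Expected counts per library summed to between 25990368 and 29747692 in the Fos-high class and between 25425993 and 28371529 in the Fos-low class. The 10 most abundant genes took 29.3% to 31.7% of them in Fos-high and 26.9% to 29.4% in Fos-low libraries. At these depths 3 counts, used here as the limit of detection for counting error alone, equal 0.101 to 0.118 CPM. WT replicate 2 stood apart from the other 7 libraries. Among 11402 genes averaging at least 1 CPM, 148 were at least 2-fold above and 206 at least 2-fold below every other library in that muscle, against 1 to 15 above and 2 to 27 below in each of the others. Results that rest on this library are therefore given with and without it. In whole muscle, fewer cells of a type and less RNA per cell cannot be told apart.

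Immediate early genes are transcribed within minutes of a stimulus without the need for new protein. Signals through the ERK and p38 kinases, calcium and cAMP reach factors that already sit on their promoters, among them serum response factor with its ELK partners at CArG boxes and CREB at cAMP response elements. Many of the products are themselves transcription factors, such as the FOS and JUN proteins that pair to form AP-1, and others shut the response down, such as the phosphatases that inactivate the kinases and the RNA-binding proteins that degrade the short-lived transcripts. In skeletal muscle these genes are known to respond to contraction and injury.

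The 250 bases before the annotated start of 7 of these genes are shown because all 7 were higher in the Fos-high class and their transcripts carry the pattern described below. They were taken from RefSeq (GRCm38.p6) and run 5′ to 3′ on the strand of the gene. Capitals mark every match, on either strand, to the CArG box, the cAMP response element (TGACGTCA, or its first 6 letters TGACGT, which the longer form contains), the AP-1 site (TGANTCA), the EGR site (GCGNGGGCG), the NF-kB site and the TATA box (TATAAA). The windows are chr12:85473640-85473889 (plus strand) for *Fos*, chr7:19310046-19310295 (minus) for *Fosb*, chr1:191183334-191183583 (minus) for *Atf3*, chr1:134079156-134079405 (minus) for *Btg2*, chr7:28379229-28379478 (minus) for *Zfp36*, chr6:134981751-134982000 (plus) for *Apold1* and chr2:57124004-57124253 (minus) for *Nr4a2*.
Fos: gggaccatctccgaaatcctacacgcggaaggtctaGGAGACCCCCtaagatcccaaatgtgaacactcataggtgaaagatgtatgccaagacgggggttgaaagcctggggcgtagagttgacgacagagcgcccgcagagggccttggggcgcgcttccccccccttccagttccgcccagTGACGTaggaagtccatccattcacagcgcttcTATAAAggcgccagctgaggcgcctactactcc
Fosb: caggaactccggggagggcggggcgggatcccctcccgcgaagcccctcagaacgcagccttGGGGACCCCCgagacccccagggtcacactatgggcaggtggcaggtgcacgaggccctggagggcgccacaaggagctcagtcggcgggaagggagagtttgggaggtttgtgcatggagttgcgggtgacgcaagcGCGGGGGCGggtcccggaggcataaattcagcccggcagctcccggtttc
Atf3: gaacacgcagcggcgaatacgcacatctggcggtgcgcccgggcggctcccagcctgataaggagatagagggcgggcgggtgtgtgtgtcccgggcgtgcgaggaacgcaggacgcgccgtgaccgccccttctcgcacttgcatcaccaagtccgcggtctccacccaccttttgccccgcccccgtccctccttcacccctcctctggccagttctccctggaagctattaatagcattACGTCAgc
Btg2: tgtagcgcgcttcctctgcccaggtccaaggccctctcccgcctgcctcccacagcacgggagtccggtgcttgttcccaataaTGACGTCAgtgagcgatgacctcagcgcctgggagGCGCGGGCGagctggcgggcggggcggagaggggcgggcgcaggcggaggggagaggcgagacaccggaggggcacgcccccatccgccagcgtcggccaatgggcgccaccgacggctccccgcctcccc
Zfp36: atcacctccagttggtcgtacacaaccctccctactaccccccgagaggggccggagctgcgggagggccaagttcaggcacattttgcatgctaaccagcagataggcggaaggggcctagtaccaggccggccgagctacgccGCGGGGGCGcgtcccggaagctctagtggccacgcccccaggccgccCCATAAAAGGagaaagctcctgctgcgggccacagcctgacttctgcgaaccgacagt
Apold1: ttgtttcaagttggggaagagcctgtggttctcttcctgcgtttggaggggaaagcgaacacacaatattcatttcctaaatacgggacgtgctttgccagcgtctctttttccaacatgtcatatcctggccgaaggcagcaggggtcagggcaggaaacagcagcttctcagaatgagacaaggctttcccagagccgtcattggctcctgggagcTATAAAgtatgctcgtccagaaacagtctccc
Nr4a2: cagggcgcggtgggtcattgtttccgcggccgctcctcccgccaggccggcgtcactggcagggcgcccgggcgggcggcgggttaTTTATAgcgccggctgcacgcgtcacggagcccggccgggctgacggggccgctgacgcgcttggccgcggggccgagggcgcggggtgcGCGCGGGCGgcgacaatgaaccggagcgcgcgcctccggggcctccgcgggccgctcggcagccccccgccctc
In the *Fos* window a cAMP response element began 66 bases and a TATA box 33 bases before the start. *Btg2* held the full palindrome 166 bases before its start and an EGR site 131 bases before it, and *Zfp36* held a CArG box 58 bases and an EGR site 105 bases before it.

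Windows on chr18 were left out beforehand, so genes on it have none. A window was found for 47 of the 66 genes that were higher in the Fos-high class by the rule given below. Of these, 21 belonged to the immediate early and feedback gene lists. The first 6 letters of the cAMP response element occurred in 6 of the 21 windows (28.6%) and in 6.47% of all 32851 windows of this length that were kept. Its full form TGACGTCA occurred in 1 of the 21 (4.76%, against 1.55% of all windows). The EGR site occurred in 7 of the 21 (33.3%, against 4.7% of all windows), the CArG box in 2 (9.52% against 1.47%), the NF-kB site in 4 (19%, against 7.25%) and the TATA box in 4 (19%, against 12.4%). No window of the 21 held an AP-1 site, against 6.75% of all windows, which says only that these letters are not in these 250 bases. Bases further upstream were not searched for any of the motifs. The windows were not matched for base composition or limited to tested genes, and the shares are descriptions.

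*Fos*, the gene that made the classes, was present at 67.4, 228 and 128 CPM in WT replicates 2 and 4 and C2-/- replicate 2. It was present at 4.56 and 7.97 CPM in WT replicates 1 and 3, and at 1.90, 2.22 and 0.926 CPM in C2-/- replicates 1, 3 and 4. In what follows the values of the Fos-high and Fos-low classes are given in these orders. No library lay between 10 and 50 CPM. The muscle just inside the upper limit, WT replicate 2, had 67.4 CPM, and the one just outside the lower limit, WT replicate 3, had 7.97 CPM, so that the gap between them was 8.45-fold.

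Across all genes with enough counts, 12542 were fitted with the *Fos* class and the genotype as terms. A gene was called higher or lower where all 3 Fos-high libraries lay above or below all 5 Fos-low libraries in CPM and the fitted difference was at least 1 on the log2 scale. By this rule 66 genes (0.526%) were higher and 22 (0.175%) were lower in Fos-high muscle. Without the condition on size, 243 genes (1.94%) lay above and 425 (3.39%) below every Fos-low library. These shares are a background for the counts below, and since the rule used the same libraries nothing is read from them. The median log2 difference of all tested genes was 0.0013. Of the 66 higher genes, 27 belonged to the 5 lists of immediate early genes and their feedback regulators, of which 65 members were tested. Among the 27, 7 differed by at least 3, 6 by between 2 and 3, and 14 by between 1 and 2 on the log2 scale. In the plot of all tested genes the higher genes reach 6.76 and the lower genes −1.98.

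**Figure D1:**
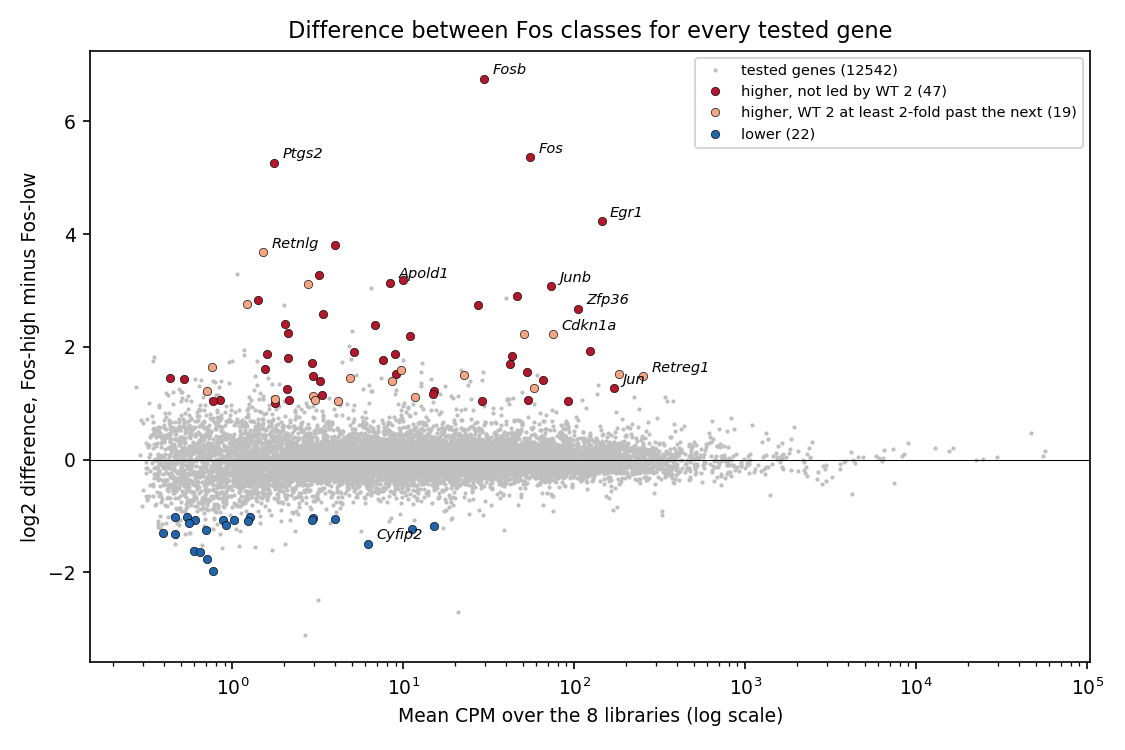
Each point is 1 of 12542 tested genes, with its mean CPM over the 8 libraries on a log axis and its fitted log2 difference (Fos-high minus Fos-low) on the vertical axis. Coloured points are the 66 higher genes, divided into 47 and the 19 in which WT replicate 2 exceeded the next Fos-high library at least 2-fold, and the 22 lower genes, and *Fosb* and *Fos* stand highest at 6.76 and 5.36.

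The AP-1 factors had a median difference of 3.08, or 2.17 over the 6 tested members other than *Fos*, which made the classes. Of 9 listed members 7 were tested, all 7 had a positive difference, and 6 were called higher. *Fosb*, a close relative of *Fos* that also pairs with JUN proteins, was present at 48.2, 121 and 63.4 CPM in Fos-high and at 1.18, 0.572, 1.05, 0.141 and 0.499 CPM in Fos-low muscle. The lowest Fos-high library thus lay 40.8-fold above the highest Fos-low library, and the log2 difference was 6.76 ± 0.46 (SE). For *Fos* the difference was 5.36 ± 0.49, but this gene defined the classes. *Atf3*, a stress-induced factor that can repress or activate its targets, differed by 3.19 ± 0.37, with 14.5 to 36.1 CPM against 1.76 to 3.42 CPM.

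The JUN partners followed in a graded manner. *Junb* was present at 132, 194 and 162 CPM in Fos-high and at 23.2, 19.6, 17.7, 20.8 and 16.5 CPM in Fos-low muscle, a difference of 3.08 ± 0.16. *Jun* was present at 214, 308 and 257 CPM against 109, 100, 129, 126 and 115 CPM, a difference of 1.27 ± 0.16. *Jund* was present at 157, 132 and 119 CPM against 69.0, 78.0, 62.4, 55.2 and 64.5 CPM, a difference of 1.03 ± 0.12. All JUN genes separated the classes without overlap, and the Fos-low libraries were close to each other in each of them. *Fosl2*, the remaining tested member, overlapped between the classes (18.1 to 31.1 against 13.1 to 18.4 CPM) with a difference of 0.70 ± 0.19. *Fosl1* and *Batf* had too few counts to be tested, with at most 2.29 and 0.193 CPM in any library.

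On the length-corrected TPM scale of the authors, on which levels can be set against each other between genes, the order of the AP-1 genes differed between the classes. In Fos-low muscle the highest level was that of *Jun*, between 60.0 and 74.3 TPM, followed by *Jund* between 36.2 and 53.0, *Junb* between 17.2 and 22.5, *Fos* between 0.85 and 7.53 and *Fosb* between 0.08 and 0.54 TPM. In Fos-high muscle *Junb* (127 to 207 TPM), *Jun* (117 to 186 TPM) and *Fos* (56.9 to 213 TPM) had overlapping ranges, with *Jund* at 79.2 to 95.3 and *Fosb* at 22.5 to 63.0 TPM. Summed over the AP-1 list without *Fos*, Fos-high libraries held 588 to 823 CPM and Fos-low libraries 217 to 229 CPM.

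**Figure D2:**
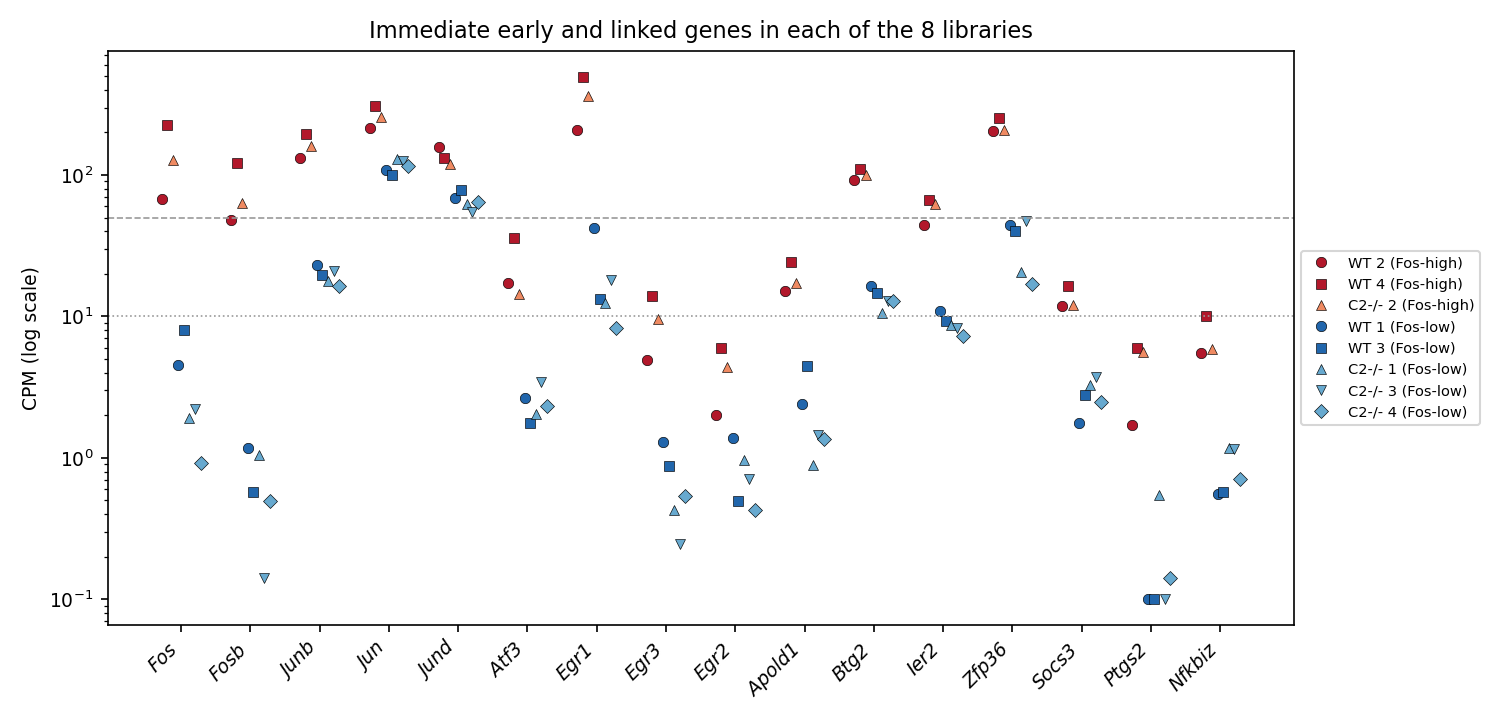
CPM of 16 genes on a log axis in each of the 8 libraries, with red or orange symbols for the 3 Fos-high and blue symbols for the 5 Fos-low libraries, shape and shade giving genotype and replicate, and values under 0.1 drawn at 0.1. The dashed and dotted lines mark 50 and 10 CPM, the limits used for *Fos*, and in all 16 genes the 3 Fos-high symbols lie above the 5 blue ones.

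EGR factors are zinc finger transcription factors induced alongside *Fos*, and the NAB proteins are corepressors that bind them. All 3 tested EGR members were called higher and neither NAB gene was. *Egr1* was present at 207, 494 and 359 CPM in Fos-high and at 42.3, 13.4, 12.5, 18.0 and 8.30 CPM in Fos-low muscle, with a difference of 4.22 ± 0.45. The 42.3 CPM of WT replicate 1 stood out among the Fos-low libraries but was still 4.89-fold under the lowest Fos-high library. *Egr3* was present at 4.93, 14.0 and 9.62 CPM against 1.30, 0.878, 0.427, 0.247 and 0.534 CPM (3.81 ± 0.41). *Egr2* was present at 2.01, 5.98 and 4.39 CPM against 1.38, 0.496, 0.970, 0.705 and 0.427 CPM (2.40 ± 0.45). The order of the Fos-high libraries was the same in *Fos*, *Egr1*, *Egr2* and *Egr3*, with WT replicate 4 highest and WT replicate 2 lowest. *Nab1* and *Nab2* differed by −0.14 ± 0.18 and 0.07 ± 0.35. *Egr4* was below the filter, with 8, 6 and 4 counts in the Fos-high libraries and at most 1 count in any Fos-low library.

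The NR4A orphan nuclear receptors, which are induced in muscle by adrenergic signals and exercise, differed from each other. *Nr4a2* separated the classes, at 2.5, 5.28 and 4.46 CPM against 0.787, 0.992, 1.24, 0.634 and 0.926 CPM, with a difference of 2.24 ± 0.32. *Nr4a1*, by far the most abundant of the family at 165 to 447 TPM, overlapped between the classes, at 344, 607 and 524 CPM against 292, 494, 251, 261 and 299 CPM (0.63 ± 0.23). *Nr4a3* was present at 21.4 and 38.5 CPM in the Fos-high WT muscles but at 7.77 CPM in Fos-high C2-/- muscle, within the Fos-low range of 2.64 to 10.4 CPM. Its difference was 1.71 ± 0.63 over both genotypes, 2.74 in WT alone and −0.12 in C2-/- alone, and this contrast between genotypes was not tested.

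Among 34 other immediate early genes that were tested, 33 had a positive difference and 14 were called higher. *Apold1*, an endothelial early response gene, was present at 15.1, 24.1 and 17.4 CPM in Fos-high and at 2.40, 4.43, 0.893, 1.45 and 1.35 CPM in Fos-low muscle (3.14 ± 0.31). *Btg2*, an antiproliferative gene whose window above carries the full cAMP response element, was present at 92.2, 111 and 99.7 CPM against 16.5, 14.7, 10.6, 12.8 and 12.8 CPM. It was among the most uniform of all, with a mean of 101 ± 9.54 CPM (SD, n = 3) against 13.5 ± 2.21 CPM (SD, n = 5) and a log2 difference of 2.91 ± 0.13 (SE). *Ier2*, a small nuclear early response protein, was present at 44.6, 66.8 and 62.3 CPM against 10.9, 9.23, 8.66, 8.28 and 7.26 CPM (2.74 ± 0.17). These genes again separated all Fos-high from all Fos-low libraries. *Cyr61*, which encodes a secreted matrix protein, differed by 1.93 ± 0.23 (189 to 272 against 40.6 to 82.6 CPM), the small MAF factor *Maff* by 1.91 ± 0.31 (6.12 to 14.3 against 1.55 to 3.82 CPM) and *Myc* by 1.86 ± 0.23 (14.2 to 17.2 against 3.42 to 6.59 CPM). Unlike *Fos*, *Fosb* and the EGR genes, *Cyr61* and *Maff* were highest in WT replicate 2.

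Values of endothelial markers are given beside *Apold1*. Of 20 tested endothelial markers 0 were called, which is near the background share, 1 (*Sox17*) lay above every Fos-low library, the median difference was −0.09, and the values ran from −0.57 ± 0.19 for *Kdr*, a receptor for vascular endothelial growth factor, to 0.58 ± 0.18 for *Sox17*. The summed endothelial level lay between 865 and 1302 CPM in Fos-high and between 964 and 1380 CPM in Fos-low muscle.

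Several negative regulators of the response were higher as well. Of 16 tested feedback phosphatases and RNA decay factors 13 had a positive difference, 3 were called higher and the median was 0.43. *Zfp36*, which binds AU-rich elements and hastens the decay of short-lived transcripts, was present at 204, 254 and 208 CPM in Fos-high and at 44.6, 40.4, 20.6, 47.2 and 16.9 CPM in Fos-low muscle (2.68 ± 0.31). *Socs3*, which restrains cytokine receptor signalling, was present at 11.8, 16.4 and 12.0 CPM against 1.77, 2.79, 3.26, 3.70 and 2.49 CPM (2.38 ± 0.26). *Dusp5*, a nuclear ERK phosphatase, was called at a low level of 1.08 to 1.45 against 0.317 to 0.926 CPM (1.05 ± 0.41). *Dusp1*, the phosphatase of p38 and JNK, overlapped because WT replicate 3, a Fos-low muscle, had 169 CPM, whereas the other Fos-low libraries had 40.4 to 71.1 CPM and the Fos-high libraries 123 to 191 CPM (1.06 ± 0.33). *Dusp2* had 3.89 CPM in WT replicate 2 and at most 1.44 CPM elsewhere.

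Genes of the path that leads to *Fos* are given next. Of 20 tested genes of this path, including *Srf*, *Elk1*, *Creb1* and *Mapk3*, 0 were called, which is near the background share. Over all tested genes, 0.526% were called higher and 0.175% lower. The median difference was −0.04, and 18 of 20 overlapped between the classes. The 2 others, *Mapk14* and *Map2k1*, lay below every Fos-low library in CPM, as did 3.39% of all tested genes. Their fitted differences were only −0.16 ± 0.10 and 0.01 ± 0.11. *Mkl1*, a coactivator of serum response factor, had the largest difference in size (−0.61 ± 0.41), which rested on WT replicate 2 with 13.9 CPM against 64.0 to 101 CPM in the other 7 libraries. Transcript levels do not measure the activity of kinases.

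Genes of inflammation formed another group. Of 15 tested NF-kB targets and cytokines 13 had a positive difference and 6 were called higher, with a median of 0.91, or 0.86 without WT replicate 2. *Ptgs2*, the inducible cyclooxygenase that makes prostaglandins, was present at 1.70, 5.98 and 5.58 CPM in Fos-high and at 0.0787, 0, 0.543, 0 and 0.142 CPM in Fos-low muscle (5.27 ± 0.82), where 3 of the 5 libraries lay under 3 counts. *Nfkbiz*, an atypical inhibitor of NF-kB that is itself induced by it, was present at 5.55, 10.1 and 5.89 CPM against 0.551, 0.572, 1.16, 1.16 and 0.712 CPM (3.27 ± 0.37). *Ccl2*, the monocyte chemokine, was present at 2.64, 4.00 and 2.08 CPM against 0.236, 0.229, 1.2, 0.529 and 0.392 CPM (2.82 ± 0.58). *Cebpd*, a transcription factor of the acute phase response, differed by 1.42 ± 0.59 with a wide Fos-low range of 9.47 to 67.1 CPM. *Selp*, the endothelial adhesion molecule P-selectin, differed by 1.14 ± 0.26 (4.67 to 5.52 against 1.77 to 3.24 CPM).

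A further 9 genes of the NF-kB and cytokine list, among them the adhesion molecule gene *Sele*, had too few counts in most libraries to pass the filter. In all 3 Fos-high libraries 8 of them were above every Fos-low library, against 1.35% of the 4144 genes below the filter. The filter asked for enough counts in more than 3 libraries, so genes high in the Fos-high class alone stayed below it whatever their counts. The count of 8 is therefore partly set by the filter, the share is no like background, and nothing is read from them. For *Cxcl10* the separation was narrow, with 8 counts in C2-/- replicate 2 and 8 in Fos-low C2-/- replicate 3 (0.308 against 0.282 CPM). *Cxcl1*, a neutrophil chemokine chosen here after its values were seen, had 236, 484 and 261 counts (8.19, 16.3 and 10.04 CPM) in Fos-high and 4, 3, 2, 0 and 0 counts in Fos-low muscle. *Tnf* had 32, 99 and 35 counts against 5, 9, 9, 2 and 4, and *Il6* had 5, 11 and 12 counts against 0, 0, 0, 1 and 1. These genes received no fitted difference.

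Markers of blood and immune cells are given beside these values. Of 12 tested macrophage and T cell markers 1 was called higher (*Cd14*, at 7.01, 4.34 and 4.12 CPM against 1.10 to 2.76 CPM), the median was 0.05 (−0.19 without WT replicate 2, −0.06 from the class means of CPM), and their sum lay between 41.4 and 70.6 CPM in Fos-high and between 35.2 and 85.5 CPM in Fos-low muscle. *Cd3e*, *Cd4* and *Cd8a* were at or below 0.427 CPM in every library. Of 9 tested blood markers 2 were called, both neutrophil genes, *Retnlg* (9.54, 0.975 and 0.539 CPM against 0.0787 to 0.427 CPM) and *S100a9* (15.9, 2.02 and 1.54 CPM against 0.214 to 0.881 CPM). The other neutrophil genes of the list overlapped between the classes. *S100a8* had 12.2, 1.11 and 0.423 CPM against 0.0356 to 0.846 CPM. Below the filter, *Ngp* had 159, 2 and 4 counts against at most 3, and *Camp* 8, 0 and 0 counts against at most 1. The haemoglobin gene *Hba-a1* lay between 714 and 5895 CPM in Fos-high and between 486 and 5993 CPM in Fos-low muscle, with no separation. Without WT replicate 2 the differences of *Retnlg* and *S100a9* were 2.03 and 1.73 in place of 3.68 and 3.11, and the median of the blood list was −0.78 in place of 0.23. The part of these cells in the cytokine values was not tested.

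**Figure D3:**
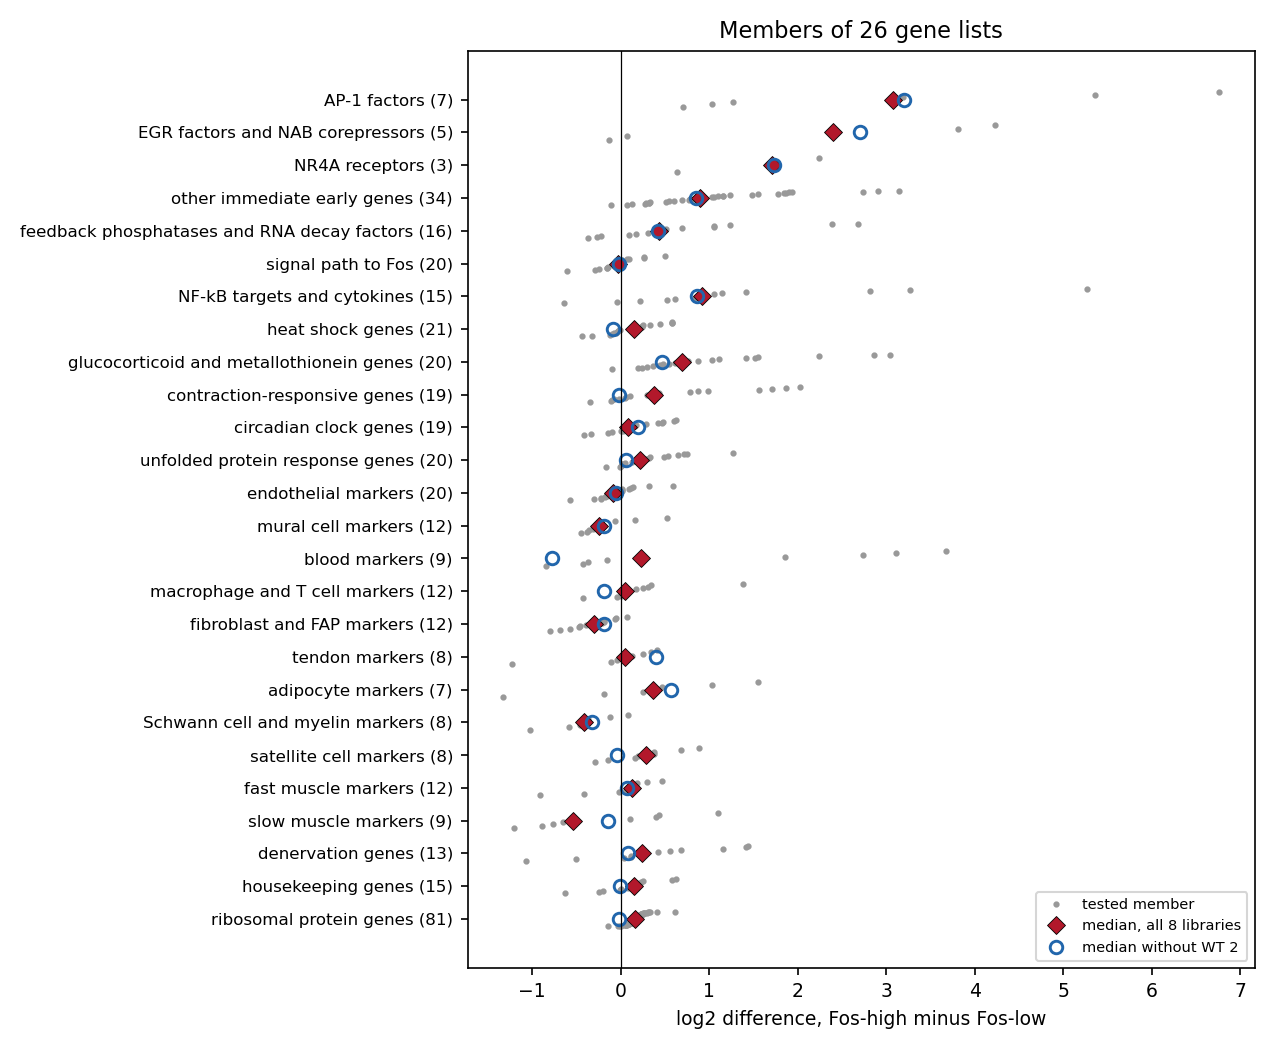
Fitted log2 differences (Fos-high minus Fos-low) of the tested members of 26 gene lists, one grey point per gene and the number tested in brackets, with the median over all 8 libraries as a red diamond and without WT replicate 2 as an open blue circle. The AP-1 median is 3.08 with *Fos*, which made the classes, and 2.17 without it (3.20 and 2.28 without that library), and the medians of the cell type and muscle lists lie between −0.54 and 0.37.

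Of the 66 higher genes, 35 were highest in WT replicate 2, 26 in WT replicate 4 and 5 in C2-/- replicate 2. In 19 genes the value of WT replicate 2 was at least 2-fold above the next Fos-high library, and in 1 gene WT replicate 4 was. The immediate early genes followed another order, since 19 of the 27 were highest in WT replicate 4, 8 in WT replicate 2 and 0 in C2-/- replicate 2, and 15 were lowest of the Fos-high libraries in WT replicate 2. Only 1 of the 19 genes led by WT replicate 2, *Id1*, was in those lists.

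The genes led by WT replicate 2 had other functions. *Retreg1*, an endoplasmic reticulum receptor of selective autophagy, was present at 995 CPM in that muscle and at 166 and 167 CPM in the other Fos-high libraries, against 115 to 160 CPM in Fos-low muscle. *Cdkn1a*, which encodes the cell cycle inhibitor p21, was present at 385, 36.8 and 44.6 CPM against 23.0 to 30.1 CPM. Both genes were chosen after their values were seen. *Trim63*, the muscle ubiquitin ligase MuRF1 that is raised in atrophy, was present at 649, 166 and 135 CPM against 83.7 to 111 CPM. In each of these genes the other Fos-high libraries lay nearer to the Fos-low range than to WT replicate 2. The same held for the metallothionein *Mt1* (220, 52.5 and 38.3 CPM against 7.76 to 37.9 CPM), the acute phase gene *Orm1* (7.60, 0.471 and 0.423 CPM against 0.0712 to 0.423 CPM) and the stress phosphatase subunit *Ppp1r15a* (165, 62.8 and 55.3 CPM against 32.5 to 39.6 CPM).

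Without WT replicate 2, 59 genes were called higher, 45 of them among the 66. Only 3 of the 19 genes led by that muscle still differed by at least 1 on the log2 scale, against 42 of the other 47 and 24 of the 27 immediate early and feedback genes. The 19 were picked by the lead of that muscle and the 47 by its absence. The contrast between them is thus set by the grouping and is no separate result. The difference of *Retreg1* was 0.32 in place of 1.48, that of *Cdkn1a* 0.65 in place of 2.22 and that of *Trim63* 0.64 in place of 1.52. Those of *Fosb*, *Fos* and *Egr1* were 7.02, 5.78 and 4.54, larger than with all 8 libraries. The glucocorticoid and metallothionein list, of which 4 of 20 were called higher, had a median of 0.70 with and 0.47 without this muscle. Its called members were *Mt1*, *Trim63*, *Cebpd* and *Errfi1*. Of these, *Cebpd* is also a member of the NF-kB and cytokine list and *Errfi1* of the immediate early lists. *Errfi1*, an inhibitor of the epidermal growth factor receptor, was even within the Fos-high class, at 90.9, 94.4 and 85.1 CPM against 16.5 to 41.5 CPM (1.55 ± 0.23). *Lcn2* and *Mt2*, the members with the largest differences at 3.05 ± 1.16 and 2.86 ± 1.15, overlapped between the classes and had 42.0 and 206 CPM in WT replicate 2 against at most 2.73 and 35.6 CPM elsewhere.

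**Figure D4:**
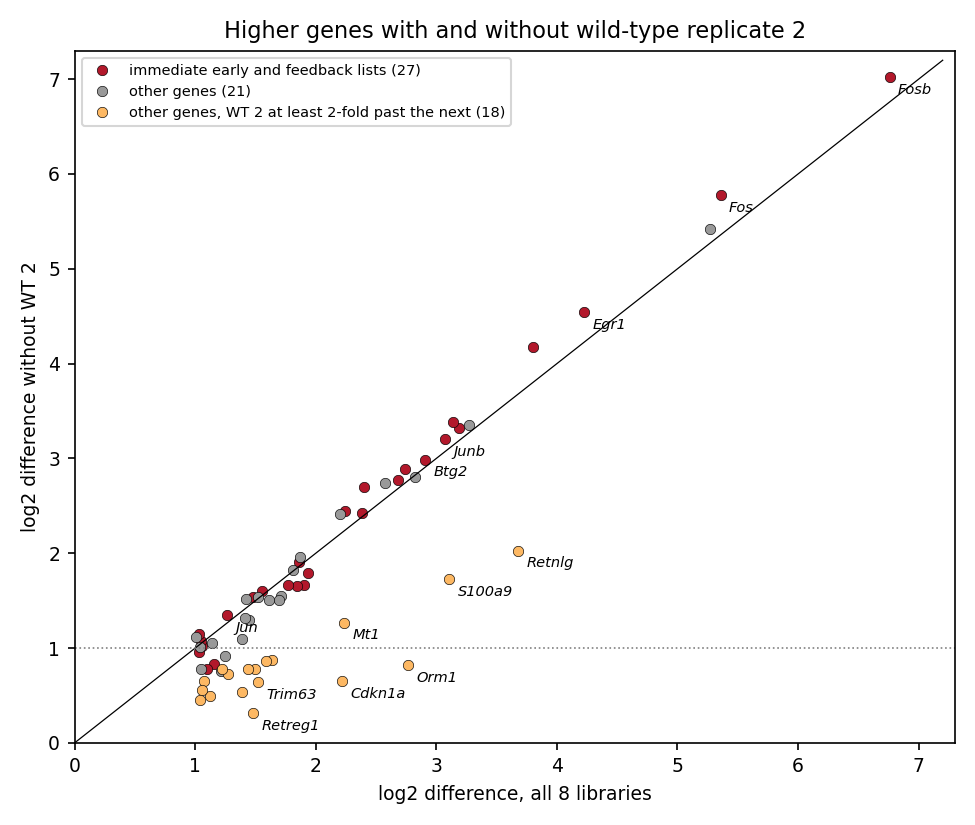
Fitted log2 difference (Fos-high minus Fos-low) of the 66 higher genes over all 8 libraries (horizontal) and without WT replicate 2 (vertical), with the line of equality and a dotted line at 1. The 27 immediate early and feedback genes lie near the line, whereas *Retreg1* lies at 1.48 and 0.32 and *Cdkn1a* at 2.22 and 0.65.

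Other genes chosen after their values were seen behaved like the immediate early genes in all 3 Fos-high libraries. *Thbs1*, which encodes a matrix protein that activates transforming growth factor beta, was present at 14.3, 24.8 and 24.6 CPM against 2.5 to 7.14 CPM (2.20 ± 0.31). *Rasd1*, a small G protein induced by glucocorticoids, was present at 4.65, 7.93 and 8.27 CPM against 0.505 to 2.47 CPM (2.57 ± 0.47), and *Tmem100* at 108, 60.3 and 58.3 CPM against 14.9 to 37.0 CPM (1.70 ± 0.22).

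Lists of other responses of muscle are given beside background shares of 0.526% called higher and 0.175% called lower among all tested genes. In lists of this size a count of 0 is near these shares. Of 19 tested contraction-responsive genes 1 was called higher, and the median was 0.38, or −0.02 without WT replicate 2. The called gene, *Myc*, is also a member of the immediate early lists. *Otud1* (18.9, 88.9 and 44.3 CPM) and *Irs2* (9.09, 36.6 and 19.2 CPM) were high in WT replicate 4 and C2-/- replicate 2 but overlapped the Fos-low ranges of 10.2 to 33.3 and 9.32 to 15.1 CPM. Of 21 heat shock genes 0 were called, with a median of 0.15 (−0.09 without WT replicate 2), and the inducible *Hspa1a* lay between 1.97 and 2.22 CPM in Fos-high and between 0.814 and 3.75 CPM in Fos-low muscle. *Hspa1a* is nearly identical to *Hspa1b*, so its counts are uncertain. Of 19 circadian clock genes 0 were called, with a median of 0.08 (0.19 without WT replicate 2). Of 20 genes of the unfolded protein response 1 was called, *Ppp1r15a*, with a median of 0.22. Without WT replicate 2 this median was 0.06 and the difference of *Ppp1r15a* was 0.73 in place of 1.27.

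The 22 lower genes differed by between −1.01 and −1.98, and 1 of them was in a list. *Cyfip2*, a component of the WAVE actin regulatory complex, was present at 1.39, 1.68 and 5.08 CPM in Fos-high and at 5.66, 8.01, 6.87, 6.34 and 14.7 CPM in Fos-low muscle (−1.49 ± 0.36). *Ak4*, a mitochondrial adenylate kinase, was present at 5.03, 4.34 and 8.46 CPM against 19.7, 17.1, 13.3, 10.05 and 11.5 CPM (−1.23 ± 0.27). *G0s2*, an inhibitor of adipose triglyceride lipase, was present at 8.99, 6.59 and 9.62 CPM against 22.2, 27.4, 9.90, 19.9 and 16.6 CPM (−1.18 ± 0.27). The classes touched closely in these genes, with C2-/- replicate 2 nearest to the Fos-low range in each. *Inpp5j*, an inositol polyphosphate phosphatase, was more even, at 2.43, 2.32 and 2.31 CPM against 3.63 to 6.48 CPM (−1.06 ± 0.24), and *Plch2*, a phospholipase C, had 0.693 to 0.773 CPM against 1.23 to 1.79 CPM (−1.09 ± 0.28). *Myh3*, the embryonic myosin heavy chain, was the listed gene, with 1.53, 1.14 and 1.53 CPM against 2.01, 2.48, 2.67, 8.71 and 3.17 CPM (−1.07 ± 0.47). Further genes whose classes did not overlap were *Dach2* (−1.03 ± 0.32), a regulator of myogenin, and, with differences that missed the size required, the RNA-binding protein genes *Ybx2* (−0.96 ± 0.27) and *Raver2* (−0.96 ± 0.21) and the secreted Wnt antagonist *Frzb* (−0.92 ± 0.22). The number of lower genes depended on single libraries, being 161 without C2-/- replicate 2, 79 without WT replicate 4, 48 without C2-/- replicate 3, 42 without WT replicate 2 and 41 without C2-/- replicate 4.

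**Figure D5:**
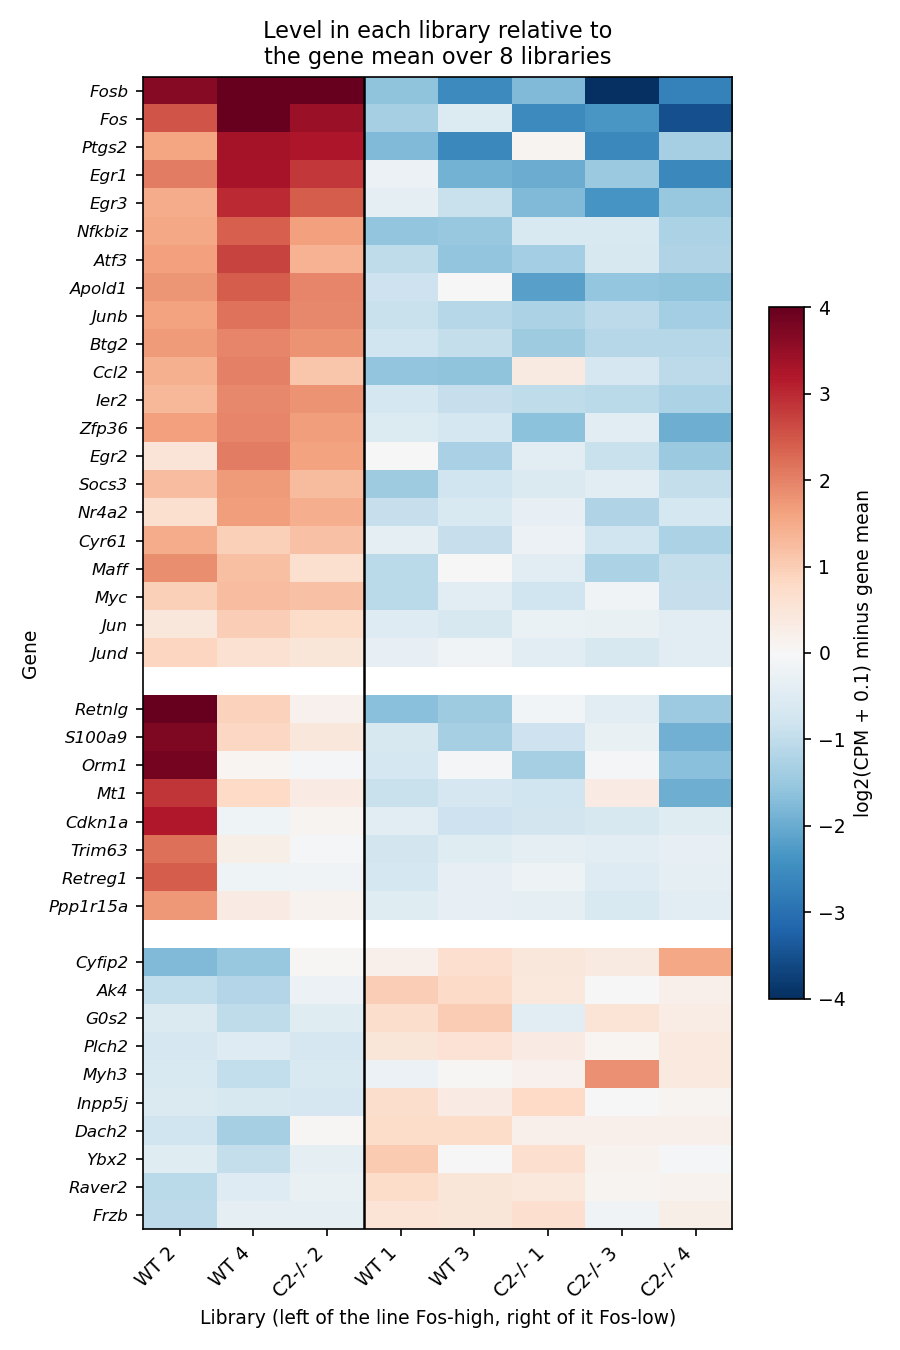
Level of 39 genes in each library as log2(CPM + 0.1) minus the mean of the gene over the 8 libraries (red above, blue below it), with Fos-high libraries left and Fos-low libraries right of the line. The upper block holds immediate early and linked genes, high in all 3 Fos-high muscles, the middle block genes led by WT replicate 2, such as *Cdkn1a* at 385 CPM there and 23.0 to 44.6 CPM elsewhere, and the lower block genes called lower or not overlapping.

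Fast muscle genes dominated in both classes, with *Myh4*, the myosin of the fastest fibres, at 8130 to 19650 TPM and *Myh7*, the slow myosin, at 0.1 to 6.1 TPM. Of 12 fast and 9 slow muscle genes 0 were called, with medians of 0.12 and −0.54, the latter −0.14 without WT replicate 2. Counts of 0 called genes in this paragraph are near the background share. *Casq2*, the slow and cardiac calsequestrin, differed by −1.21 ± 0.32 and *Myh2*, the myosin of type IIa fibres, by −0.91 ± 0.22, and both overlapped between the classes. Of 13 tested denervation genes *Myh3* alone was called, and *Runx1* had 20.4 CPM in WT replicate 2 and 2.94 to 9.97 CPM elsewhere. Mural cell (12 genes), fibroblast (12), tendon (8), adipocyte (7), Schwann cell (8) and satellite cell (8) markers had 0 called genes and medians of −0.25, −0.30, 0.05, 0.37, −0.42 and 0.28. Without WT replicate 2 these medians were −0.19, −0.19, 0.40, 0.56, −0.32 and −0.05, so that the satellite cell median changed sign. From the class means of CPM the tendon and adipocyte medians had the other sign, at −0.09 and −0.02. The mean log2 level of the tendon list in WT replicate 2 was −1.84 and that of the blood list 2.51, relative to the mean of each gene. Housekeeping and ribosomal protein genes had 0 called of 15 and 81, with medians of 0.14 and 0.16, which were −0.01 and −0.02 without WT replicate 2.

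Within each genotype the difference had the same direction for the immediate early genes, although only 1 C2-/- muscle was Fos-high and its difference has no replicate. In WT alone all 27 called immediate early and feedback genes were fitted, all 27 differences were positive, and the median was 2.17. In C2-/- alone 24 had enough counts, all 24 differences were positive, and the median was 1.80. Since the rule itself required this separation, the common direction is no separate result. For *Fos* the differences in WT and in C2-/- were 4.69 and 6.21, for *Egr1* 3.78 and 4.77, for *Apold1* 2.64 and 3.78, for *Junb* 3.05 and 3.11, for *Btg2* 2.82 and 3.02 and for *Jun* 1.44 and 1.03. The contrast between genotypes was not tested for single genes.

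Among the Fos-low muscles some of these genes were ordered by genotype. Both Fos-low WT muscles lay above all 3 Fos-low C2-/- muscles in 9 of the 27 genes, against 9.45% of all tested genes. The 27 genes were selected with the *Fos* class, include *Fos* itself and were measured in the same 5 libraries. They are thus not separate observations, and the difference between genotypes was not tested here. *Fos* had 4.56 and 7.97 CPM against 0.926 to 2.22 CPM, *Apold1* 2.40 and 4.43 CPM against 0.893 to 1.45 CPM, and *Ier2* 10.9 and 9.23 CPM against 7.26 to 8.66 CPM. In *Jun* and *Socs3* the order was not seen, with *Jun* at 109 and 100 CPM against 115 to 129 CPM.

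The comparison of genotypes, which the study was designed for, was made with and without the *Fos* class as a term. In edgeR's quasi-likelihood test, with p-values adjusted after Benjamini and Hochberg, 4 genes (0.0319%) were called at a threshold of 0.05 and 1.5-fold. These were *Eif3j1*, *Ahcy* and *Emc10*, higher in C2-/-, and the targeted *Mybpc2*, and they were called in both fits. The count depended on the tool and the libraries, with 24 calls by DESeq2, 2 with the replicate number as a block and 2 to 7 when 1 library was left out. At an unadjusted p under 0.05, 520 genes (4.15%) passed with the class term and 663 (5.29%) without it. For the 65 tested immediate early and feedback genes, genotype alone was used, because the class was made from one of them. Of these, 53 were lower in C2-/- than in WT, 5 had an unadjusted p under 0.05 and 0 passed the adjusted threshold, the smallest adjusted p being 0.881. All 27 of the called genes were lower in C2-/- and again 0 passed, but 2 of the 3 Fos-high libraries by which these genes were selected are WT, so their direction is largely set by the selection. The count of 53 includes these 27, and the share of all tested genes lower in C2-/- is not given here. Nothing is therefore read from that count. *Fos* differed between genotypes by −1.35 ± 1.55 on the log2 scale (SE, edgeR adjusted p = 0.974), an SE larger than the difference itself.

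The annotated interval of several genes named here overlaps that of another gene in RefSeq, and the sources do not state that counting used the strand, so reads could have been shared. This concerns *Apold1*, *Egr2*, *Orm1*, *Otud1*, *Irs2*, *Selp*, *Kdr* and *Runx1* (each with a long noncoding RNA) and *Nr4a2*, *Cebpd*, *Ppp1r15a*, *Rasd1*, *Nab2*, *Inpp5j*, *Raver2*, *Mkl1*, *Mybpc2* and *Cyfip2* (each with a protein-coding gene).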

How the data were processed

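RNA of 8 TA muscles (4 WT, 4 C2-/-, 1 library per mouse) was sequenced after oligo(dT) selection on the DNBSEQ platform. Per the labels and methods the authors aligned reads to GRCm38.p6 with HISAT. The deposited expected counts per gene were made by the authors before deposition, by featureCounts per the methods (the labels also name Bowtie2), and 5.5% to 6.53% of them are not whole. The deposited TPM values, also made by the authors, correct for gene length and were used only to compare levels between genes. Whether counting used the strand is not given in the sources used here. The table also holds the authors' fold changes and p-values between genotypes, which were not used, and 8 further per-sample columns were not used. One label gives another age at one point of the protocol than the 22 months of the age label.

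Of 16687 rows, 16686 carried a gene ID, and 25 symbols damaged in the file were restored through RefSeq. CPM were computed from the expected counts. Rounded counts were fitted with edgeR 4.0.16 (R 4.3.3, TMM factors from 0.929 to 1.03, default filter) by a quasi-likelihood model with genotype and *Fos* class, and SEs were taken from its F statistic. Library totals lay between 25425993 and 29747692. No p was read for the *Fos* class. Genotype calls required 1.5-fold and a Benjamini-Hochberg adjusted p under 0.05 over all tested genes. The fit was tested on simulated counts.

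Genes named by rule were *Fos*, *Egr1* and *Apold1*, up to 15 genes per direction with the largest difference among genes that averaged at least 1 CPM and did not overlap between the classes, up to 6 tested members per list with the largest difference, and all tested AP-1, EGR and NR4A members. Other genes are described as chosen after their values were seen, or stand for a list. The members and the 26 lists were chosen with earlier results of these data known. Alternatives were another filter, scaling and tool (DESeq2 1.42.0, limma 3.58.1), each genotype alone, a replicate block and leaving out each library. The mice are biological replicates, and 1 Fos-high C2-/- muscle has no replicate.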

Additional observations from a re-analysis of the deposited data

Results flagged for a closer look

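Within the Fos-low class of 5 libraries, 122 groups of values were examined for a library far from the others, and 11 were flagged. Chance flags about 1 in 20 groups. The values set apart in C2-/- replicate 3 were *Mt2* at 35.6 CPM, *Myh3* at 8.71 CPM, *Kdr* at 26.7 CPM, the heat shock list at a level of 0.353 and the denervation list at a level of 0.412, each level being the mean log2 CPM relative to the mean of each gene over the 8 libraries. In WT replicate 3 they were *Dusp1* at 169 CPM, *Nr4a1* at 494 CPM and *Otud1* at 33.3 CPM. WT replicate 1 stood apart in *Egr1* at 42.3 CPM, C2-/- replicate 1 in *Ptgs2* at 0.543 CPM and C2-/- replicate 4 in *Cyfip2* at 14.7 CPM.

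The difference between Fos-high and Fos-low muscle had opposite signs in the genotypes, without overlap in either, for 3 named genes. The share of all tested genes with this pattern was not counted. So few libraries per genotype make such separation easy to reach, so nothing is read from this count. It was 2.22 in WT and −0.35 in C2-/- for *Dusp2*, −0.46 and 0.26 for *Nab1* and −0.85 and 0.18 for *Rgs5*, a pericyte gene, on the log2 scale. These contrasts between the genotypes were not tested, and each C2-/- value rests on 1 Fos-high muscle.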

How the results depend on the processing

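The count of 66 higher genes was 122 without a filter, 192 in WT libraries alone and 243 without a condition on size, and 59 to 120 when 1 library was left out (111 without WT replicate 4, 120 without C2-/- replicate 2, 107 without C2-/- replicate 3). The count of 22 lower genes was 59 without a filter, 8 with 10 counts required in every library, 128 in WT alone, 86 in C2-/- alone and 425 without a condition on size. It was 24 to 161 when 1 library was left out. Fewer libraries per class make the separation easier to reach, by construction. The 4 genotype calls became 24 with DESeq2 and 2 to 7 when 1 library was left out, with 7 without WT replicate 2 and without C2-/- replicate 3, and 2 without WT replicates 1 or 3 or C2-/- replicates 1 or 2. The cause was not tested.

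Whether libraries of the genotypes with the same replicate number are paired is not settled here. The deviations of same-numbered libraries correlated at 0.27, 0.04, −0.05 and 0.02. Those of libraries with different numbers correlated at −0.23 to 0.20, so that 0.27, for replicates 1, was the highest value. These correlations cannot exclude a shared batch or order of processing. With the number as a replicate block, 53 genes were higher and 28 lower, 2 genotype calls were left, and the differences of *Cdkn1a* and *Retreg1* turned to −0.55 and −0.37. Of 1699 differences of named genes under the alternatives, 1561 moved by less than 1 SD between libraries of a class, 136 by more, and these 2 were the only called genes among 48 to change sign. Another 21 named genes, none of them called, changed sign under at least 1 alternative. Of 495 list medians 56 moved, among them that of the AP-1 list without *Fos* (2.17), an alternative chosen after seeing the data. The 3 Fos-high libraries, 1 of them C2-/-, limit the precision throughout.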
